A study of Mus musculus with 12 samples.

Results

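Transcripts of 71 genes for conjugating enzymes and dehydrogenases were followed across 12 arrays of cells sorted from the mouse olfactory mucosa. The genes were chosen by symbol, not by value. They comprise the glutathione transferases of the alpha, mu, pi, theta, omega and kappa classes (Gst), the glucuronosyltransferases of the Ugt1a, Ugt2a and Ugt2b groups, the sulfotransferases (Sult), the alcohol dehydrogenases (Adh with a number), the aldehyde dehydrogenases (Aldh) and the quinone reductase gene Nqo1. Each gene was read from the probe set with the highest mean among those that carry its symbol alone, and 71 of the 19938 genes measured this way met the rule. By family these were 18 Gst genes, 16 Sult genes, 8 Ugt genes, 7 Adh genes, 21 Aldh genes and Nqo1.

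All 18 mice carried S100a5-tauGFP, a reporter that couples green fluorescent protein to S100a5, the gene of a calcium-binding protein that active olfactory neurons transcribe more strongly. Mice of both sexes, 7 to 12 weeks old, spent 40 hours singly in chambers at an air flow of 3.1 L per minute, and from 26 hours on were given pulses of 10 seconds every 20 minutes. Vehicle mice received filtered air, and odor mice received odorant, named in the series title as a citrus accord at 5%. Cells of 3 mice were pooled and sorted into GFP-positive and GFP-negative cells, so that 6 pools gave 1 array of each fraction and each of the 4 groups holds 3 arrays. The labels number the vehicle pools 1, 2 and 4 and the odor pools 2, 3 and 4, and values per array are given in that order. The gate rests on the reporter and not on cell type. S100a5 itself was higher in GFP-positive cells by 0.31 (log2, SE 0.095) in odor mice, with an adjusted p of 0.0166 in limma, and differed by 0.19 (SE 0.095, adjusted p = 0.123) in vehicle mice. Omp, the general marker of mature olfactory sensory neurons, lay between 13.04 and 13.29 (log2) in GFP-negative cells and between 13.45 and 13.51 in GFP-positive cells, so the GFP-negative fraction held neurons too.

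The enzymes act on odorants, drugs and the cell's own aldehydes, steroids and quinones. Glutathione transferases couple reactive molecules to glutathione, sulfotransferases add a sulfate group taken from the donor PAPS, and glucuronosyltransferases add glucuronic acid taken from UDP-glucuronate. Alcohol and aldehyde dehydrogenases oxidise alcohols to aldehydes and aldehydes to acids, among them retinol and retinal. In the olfactory epithelium such enzymes are best known from the sustentacular cells, the supporting cells that surround the sensory neurons, and from Bowman's glands beneath them.

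Promoters of 5 members are shown first, because genes of this kind are textbook targets of NRF2, the factor of the oxidant response, and of the aryl hydrocarbon receptor. The letters TGACNNNGC, the core of the antioxidant response element bound by NRF2, and TNGCGTG, the core of the element bound by the aryl hydrocarbon receptor, were searched on both strands of the 250 bases before each start site. Sequences are from RefSeq, build GRCm38.p6, and entries were matched for 60 of the 71 members. TGACNNNGC was found for 6 members, in 8.22% of the members' promoters and in 10.2% of all 32851 promoters. TNGCGTG was found for 4 members, in 5.48% of the members' promoters and in 4.10% of all. These shares are close to one another, and a match describes letters only. The sequences shown belong to 3 members that were lower in GFP-positive cells and 2 that were higher, read 5′ to 3′ on the strand of the gene, with the match in capitals. For Gsta3 (chr1:21240335-21240584, plus strand), Gstm5 (chr3:107895604-107895853, plus strand) and Aldh9a1 (chr1:167349741-167349990, plus strand) the TGACNNNGC match ends 113, 34 and 79 bases before the start. Aldh9a1 holds TNGCGTG as well, on the opposite strand 34 bases before the start, and the 2 matches do not overlap. For Aldh18a1 (chr19:40588464-40588713, minus strand) TNGCGTG ends 1 base before the start, and for Sult1d1 (chr5:87569007-87569256, minus strand) it lies on the opposite strand 41 bases before it.
Gsta3: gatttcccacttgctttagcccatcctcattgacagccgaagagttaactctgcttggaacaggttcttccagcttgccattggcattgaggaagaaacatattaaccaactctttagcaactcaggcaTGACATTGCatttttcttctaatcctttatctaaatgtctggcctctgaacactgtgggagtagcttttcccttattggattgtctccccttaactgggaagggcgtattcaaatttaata
Gstm5: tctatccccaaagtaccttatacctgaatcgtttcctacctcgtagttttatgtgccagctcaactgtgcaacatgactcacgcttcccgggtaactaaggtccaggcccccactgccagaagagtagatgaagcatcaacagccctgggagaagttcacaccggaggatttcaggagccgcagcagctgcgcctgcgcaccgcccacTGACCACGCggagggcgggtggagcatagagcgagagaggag
Aldh9a1: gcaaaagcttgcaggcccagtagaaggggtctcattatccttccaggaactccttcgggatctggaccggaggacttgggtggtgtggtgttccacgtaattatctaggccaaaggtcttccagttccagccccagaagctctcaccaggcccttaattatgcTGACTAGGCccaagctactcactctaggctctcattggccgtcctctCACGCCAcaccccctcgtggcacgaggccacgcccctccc
Aldh18a1: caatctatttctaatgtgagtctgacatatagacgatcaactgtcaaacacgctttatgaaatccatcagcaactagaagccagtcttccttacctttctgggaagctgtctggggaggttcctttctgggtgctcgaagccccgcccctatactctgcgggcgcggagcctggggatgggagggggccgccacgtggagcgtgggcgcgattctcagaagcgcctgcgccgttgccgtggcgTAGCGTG
Sult1d1: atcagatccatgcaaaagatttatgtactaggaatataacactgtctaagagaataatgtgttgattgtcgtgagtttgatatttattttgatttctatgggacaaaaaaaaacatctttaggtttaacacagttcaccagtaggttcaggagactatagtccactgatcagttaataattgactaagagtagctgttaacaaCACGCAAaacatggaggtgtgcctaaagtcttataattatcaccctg

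The comparison of the sorted fractions asks in which cells these transcripts are more abundant. In vehicle mice 26 of the 71 members were lower in GFP-positive than in GFP-negative cells and 9 were higher, at an adjusted p under 0.05 (limma, Benjamini-Hochberg over all genes). Over all genes 18.2% were lower and 29.9% higher, while of the members 36.6% were lower and 12.7% higher. In odor mice 24 members were lower and 12 higher, against 18.7% lower and 33.5% higher over all genes. Both treatments gave a lower value for 24 members (16.5% of all genes) and a higher value for 7 members (25.6% of all genes), with no member called in opposite directions. The median difference of the 71 members was -0.06 (log2) in vehicle and -0.02 in odor mice, against 0.06 and 0.13 over all genes. The arrays of the fractions did not overlap for 29 members lower and 11 higher in vehicle mice, where the shares over all genes were 22.0% and 35.3%, together 57.4%. In odor mice these counts were 28 and 17, beside 20.4% and 40.4%, together 60.7%. An unadjusted p under 0.05 in limma was reached by 40 members in vehicle mice (53.0% of all genes) and by 39 in odor mice (58.3% of all genes).

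The count of lower members ranged from 21 to 28 over the scalings of arrays named here, and the count of higher members moved more. Centring each array on its median gene raised the median of all genes to 0.20 in vehicle and 0.27 in odor mice. The split in vehicle mice was then 17 higher and 21 lower, and in odor mice 30 higher and 22 lower, with 46.9% and 58.7% of all genes higher. Under cyclic loess 28 members were lower and 8 higher in vehicle mice. For odor mice loess gave 27 lower and 6 higher, with 20.7% of all genes higher. Under quantile normalization, loess and centring, 24, 24 and 21 of the 24 members lower in both treatments kept their call. The 7 members higher in both treatments all kept theirs under quantile normalization and centring, and 5 of 7 kept it under loess. The count of 12 higher in odor mice fell to 7 without odor GFP-positive replicate 2, to 7 without odor GFP-positive replicate 3 and to 5 without odor GFP-negative replicate 4. The shares of all genes higher were then 28.3%, 27.4% and 26.5%, against 33.5% with all arrays. Arrays were of 3 pools a group, so that the spread tested is that between pools of mice.

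**Figure D1:**
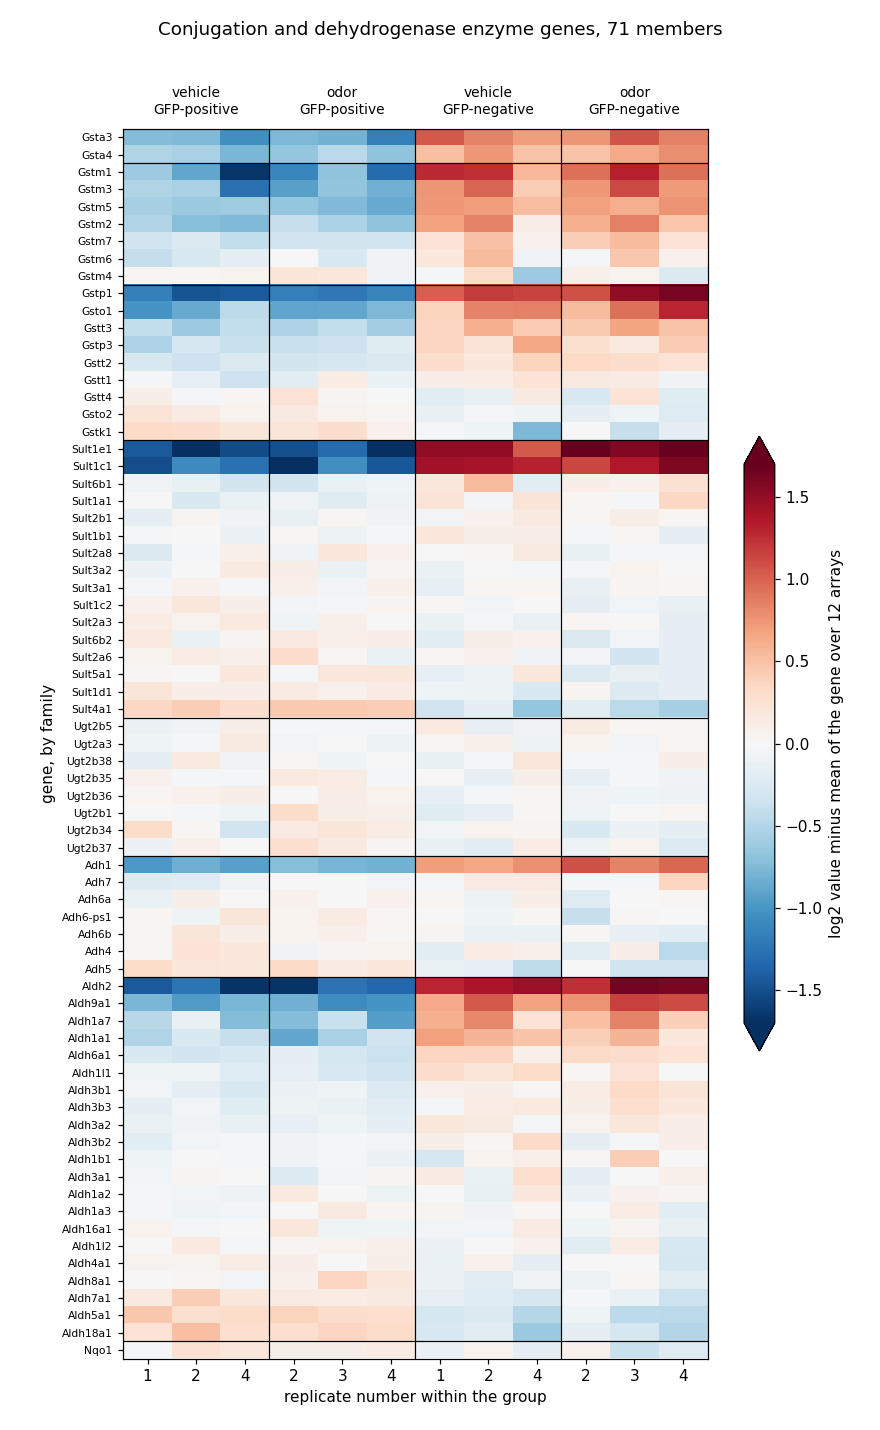
Each row is 1 of the 71 members, ordered within its family by sort difference, and each column 1 of the 12 arrays, and colour is the log2 value minus the gene's mean over the 12 arrays (blue low, red high, colours end at the limits of the scale). Most Gst genes, Sult1e1, Sult1c1, Adh1 and Aldh2 are blue in the 6 GFP-positive arrays and red in the 6 GFP-negative arrays, and the Ugt rows are pale throughout.

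Glutathione transferases made up 12 of the 24 members lower in both treatments. In vehicle mice 14 of 18 were lower in GFP-positive cells and 2 higher, and in odor mice 12 were lower and 1 higher. Their median difference was -0.88 (log2) in vehicle mice and -0.89 in odor mice, and stayed between -0.73 and -0.99 under the 3 other scalings. Of the alpha class, which conjugates products of lipid peroxidation and some steroids, both measured members were lower in both treatments. Gsta3 read 7.00, 6.99 and 6.70 in GFP-positive and 8.79, 8.58 and 8.45 in GFP-negative cells of vehicle mice. In odor mice Gsta3 read 6.98, 6.94 and 6.58 against 8.49, 8.81 and 8.60. No array of one fraction reached the range of the other, and the difference was 3.26-fold in vehicle mice (log2 -1.71, SE 0.13, adjusted p = 6.6e-07) and 3.48-fold in odor mice. Gsta4, which clears hydroxynonenal, read 7.33, 7.29 and 7.07 in GFP-positive and 8.36, 8.58 and 8.33 in GFP-negative cells of vehicle mice, and 7.19, 7.38 and 7.16 against 8.32, 8.49 and 8.63 in odor mice. Its fractions did not overlap either, at -1.19 (SE 0.11) in vehicle and -1.24 in odor mice.

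The mu class conjugates epoxides and quinones, and 5 of its 7 members were lower in both treatments (16.5% of all genes). Gstm1 read 9.55, 9.29 and 8.51 in GFP-positive cells of vehicle mice and 9.06, 9.48 and 8.86 in those of odor mice. In GFP-negative cells Gstm1 read 11.44, 11.41 and 10.74, and 11.10, 11.49 and 11.10. The fractions stood apart although GFP-positive arrays varied more for Gstm1 than for any other member in vehicle mice (SD 0.54). The difference was 4.23-fold (log2 -2.08, SE 0.26, adjusted p = 4.49e-05) in vehicle and 4.28-fold in odor mice. Gstm5, whose promoter is shown above, read 7.44, 7.38 and 7.41 in GFP-positive and 8.74, 8.72 and 8.53 in GFP-negative cells of vehicle mice, and 7.35, 7.25 and 7.15 against 8.70, 8.62 and 8.77 in odor mice. The fractions of Gstm5 were apart in both treatments, by -1.26 (SE 0.080) and -1.45. For Gstm2 the values were 7.84, 7.63 and 7.61 against 9.04, 9.21 and 8.48 in vehicle and 7.96, 7.81 and 7.68 against 8.97, 9.22 and 8.83 in odor mice, again without overlap, with differences of -1.21 and -1.19. Gstm7 differed by less, -0.61 and -0.73. Gstm3 read 7.46, 7.43 and 6.72 against 8.72, 8.97 and 8.40 in vehicle and 7.06, 7.31 and 7.16 against 8.72, 9.11 and 8.71 in odor mice. The difference of Gstm3 was -1.50 and -1.67 on this probe set, but its other probe set gave -0.38 and 0.00. That set was called in vehicle mice (adjusted p = 0.0104, limma) and not in odor mice (adjusted p = 0.995). The size of the Gstm3 difference and its odor call are thus uncertain. Counts of lower members include Gstm3 by the probe set used. Gstm4 did not pass in either treatment, with 0.15 (SE 0.18) in both and adjusted p of 0.562 and 0.514. Its GFP-negative arrays ran from 7.75 to 8.68 in vehicle mice and enclosed the GFP-positive ones at 8.39, 8.40 and 8.43. Gstm6, which lay below the lower quartile of all 12 arrays, was lower in vehicle mice alone (-0.50, adjusted p = 0.0177), and the difference between treatments was not called. The vehicle call of Gstm6 was lost under centring and without vehicle GFP-positive replicate 1 or GFP-negative replicate 2 (adjusted p up to 0.0806). Mu-class genes resemble one another closely in sequence, so a single value may include signal from its relatives.

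Among the other classes the pi, omega and theta members were mostly lower as well. Gstp1, the main pi-class enzyme, read 7.31, 7.01 and 7.04 in GFP-positive and 9.48, 9.65 and 9.62 in GFP-negative cells of vehicle mice. The odor mice gave 7.31, 7.25 and 7.34 for Gstp1 against 9.55, 9.98 and 10.09. Its 6 GFP-positive arrays lay more than 2 log2 units below every GFP-negative array, a difference of 5.52-fold (log2 -2.47, SE 0.13, adjusted p = 2.03e-08) in vehicle and of 5.95-fold in odor mice. Gstp1 has a near copy, Gstp2, that its probes may also bind. Gstp3, with 1 other coding gene between it and Gstp1 in the genome, read 5.90, 6.13 and 6.04 against 6.78, 6.63 and 7.07 in vehicle mice. In odor mice Gstp3 read 6.04, 6.07 and 6.21 against 6.69, 6.58 and 6.84, and the differences were -0.80 and -0.60. The theta class acts on small halogenated compounds. Its member Gstt3 read 6.86, 6.66 and 6.86 against 7.64, 7.88 and 7.71 in vehicle and 6.75, 6.86 and 6.69 against 7.73, 7.95 and 7.77 in odor mice, without overlap, and differed by -0.96 and -1.05. Gstt2 differed by -0.57 and -0.58. Gstt1 was called lower in vehicle mice alone (-0.34, adjusted p = 0.018) and Gstt4 in neither. The call of Gstt1 was lost under centring and without vehicle GFP-positive replicate 4 or GFP-negative replicate 4 (adjusted p up to 0.0891).

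The omega class, which reduces dehydroascorbate and mixed disulfides, split between fractions. Gsto1 read 6.16, 6.31 and 6.73 in GFP-positive and 7.54, 8.01 and 8.03 in GFP-negative cells of vehicle mice, and 6.27, 6.29 and 6.41 against 7.71, 8.11 and 8.46 in odor mice. Gsto1 was lower without overlap, 2.75-fold in vehicle (log2 -1.46, SE 0.19) and 3.42-fold in odor mice. Its neighbour Gsto2 went the other way, with 6.84, 6.76 and 6.68 in GFP-positive and 6.48, 6.59 and 6.54 in GFP-negative cells of vehicle mice. In odor mice Gsto2 read 6.77, 6.67 and 6.65 against 6.44, 6.54 and 6.39, and in neither treatment did its fractions overlap. That is 1.16-fold higher in vehicle (adjusted p = 0.0243) and 1.18-fold higher in odor mice (adjusted p = 0.0142). The call of Gsto2 in vehicle mice was lost with the pool as a replicate block (adjusted p = 0.0509), and that in odor mice under loess (adjusted p = 0.146). It was also lost in vehicle mice without GFP-positive replicate 1 or 2 or GFP-negative replicate 1, and in odor mice without GFP-positive replicate 2 or GFP-negative replicate 4. Gstk1, the mitochondrial kappa-class enzyme, was higher by 0.57 (SE 0.17, adjusted p = 0.0127) in vehicle mice and differed by 0.38 (adjusted p = 0.0742) in odor mice, where the pool block gave an adjusted p of 0.0492.

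**Figure D2:**
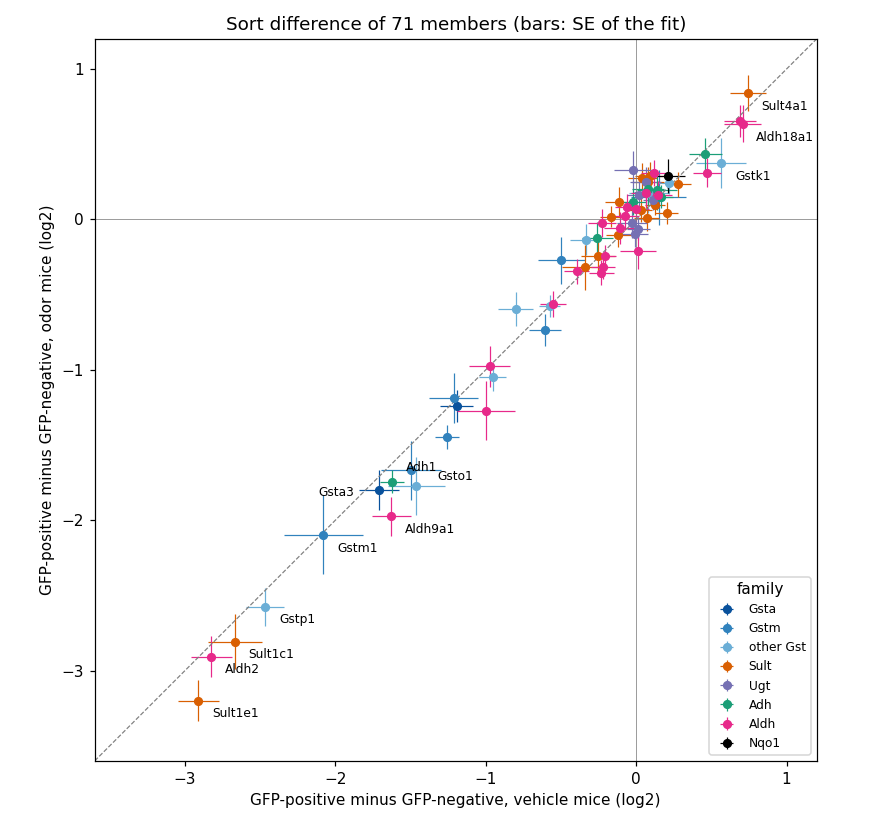
Each point is 1 member, with the GFP-positive minus GFP-negative difference in vehicle mice on the x axis and in odor mice on the y axis (log2), bars are the SE of the fit, colours the families, and the dashed line marks equality. Sult1e1, Aldh2, Sult1c1, Gstp1 and Gstm1 lie lowest, below -2 in both treatments, and Sult4a1, Aldh18a1 and Aldh5a1 highest.

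Sulfotransferases held the largest difference of all members, beside many genes near the low end of the arrays. Sult1e1, the estrogen sulfotransferase, read 4.44, 4.15 and 4.35 in GFP-positive and 7.38, 7.38 and 6.91 in GFP-negative cells of vehicle mice. In odor mice Sult1e1 read 4.38, 4.56 and 4.18 against 7.62, 7.44 and 7.65. Its 6 GFP-positive arrays were below the lower quartile of all probe sets on the same array (5.65 to 5.83 over the 12 arrays). Its GFP-negative arrays lay above that quartile. The difference was 7.52-fold (log2 -2.91, SE 0.14, adjusted p = 1.14e-08) in vehicle and 9.19-fold in odor mice. Sult1c1, a phenol-type sulfotransferase, followed with 7.90, 8.32 and 8.14 against 10.84, 10.80 and 10.71 in vehicle mice. In odor mice Sult1c1 read 7.54, 8.37 and 7.97 against 10.54, 10.77 and 10.996, more spread than in vehicle mice and still without overlap. Sult1c1 was lower 6.35-fold (log2 -2.67, SE 0.18) there and 7.00-fold in odor mice.

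The sulfotransferases that were higher in GFP-positive cells differed by less. Sult4a1, a brain sulfotransferase without an established substrate, read 10.72, 10.77 and 10.65 in GFP-positive and 10.02, 10.20 and 9.70 in GFP-negative cells of vehicle mice. In odor mice Sult4a1 read 10.81, 10.80 and 10.78 against 10.17, 9.90 and 9.80. All GFP-positive arrays were above all GFP-negative ones, 1.67-fold in vehicle (log2 0.74, SE 0.12, adjusted p = 0.000285) and 1.79-fold in odor mice. Sult1d1, which sulfates catecholamines and phenols, read 12.86, 12.77 and 12.77 against 12.59, 12.58 and 12.40 in vehicle and 12.80, 12.73 and 12.81 against 12.70, 12.43 and 12.50 in odor mice. Its fractions stood close but did not overlap, 1.21-fold higher in vehicle (adjusted p = 0.015) and 1.18-fold in odor mice (adjusted p = 0.034). The odor call of Sult1d1 was lost without any 1 of the arrays except odor GFP-negative replicate 2, with adjusted p up to 0.108, and the vehicle call without GFP-positive replicate 1 or GFP-negative replicate 4 (up to 0.0644). With only the compared groups in the fit the odor call was lost too (adjusted p = 0.0709). Of the other 12 Sult genes, 9 lay below the lower quartile on all 12 arrays. Calls in 1 treatment were made for Sult2a3 (0.20 in vehicle mice), and for Sult5a1 (0.29) and Sult6b2 (0.28) in odor mice. With 1 array left out these calls held in 2, 2 and 1 of 6 fits, with adjusted p up to 0.123, 0.0871 and 0.0921. Sult2a3 kept its call without vehicle GFP-positive replicate 2 or GFP-negative replicate 2, Sult5a1 without odor GFP-positive replicate 2 or GFP-negative replicate 3, and Sult6b2 without odor GFP-negative replicate 3. All 3 calls were lost under loess. With the pool block Sult2a3 and Sult6b2 lost their calls (adjusted p of 0.0754 and 0.0642), and 3 genes gained one. These were Sult1a1, lower with adjusted p of 0.0389 in vehicle and 0.0450 in odor mice, Sult6b1, lower with 0.0281 and 0.0353, and Sult2a6, higher in odor mice with 0.0388. The family median was 0.03 in vehicle and 0.05 in odor mice and changed sign with the scaling.

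The glucuronosyltransferases with a probe set of their own were 7 Ugt2b genes and Ugt2a3. Of these 8, 7 lay below the lower quartile on all 12 arrays. None was called in vehicle mice, where 18.2% of all genes were lower and 29.9% higher. Ugt2b37, the exception, read 6.33, 6.51 and 6.42 in GFP-positive and 6.30, 6.23 and 6.55 in GFP-negative cells of vehicle mice, so its fractions overlapped. Ugt2b34 was higher in odor mice by 0.33 with an adjusted p of 0.048, which rose to 0.0542 with the pool block and was above 0.05 in each of the 6 fits that left out an array. No Ugt1a gene and neither Ugt2a1 nor Ugt2a2 has a probe set of its own on this array. Their shared probe sets were left out by the rule, and that of Ugt2a1 and Ugt2a2 was lower in GFP-positive cells, by a difference of -0.58 in vehicle and -0.69 in odor mice. Over the families, 20 members (28.2%) lay below the lower quartile on all 12 arrays, against 11.7% of all genes.

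**Figure D3:**
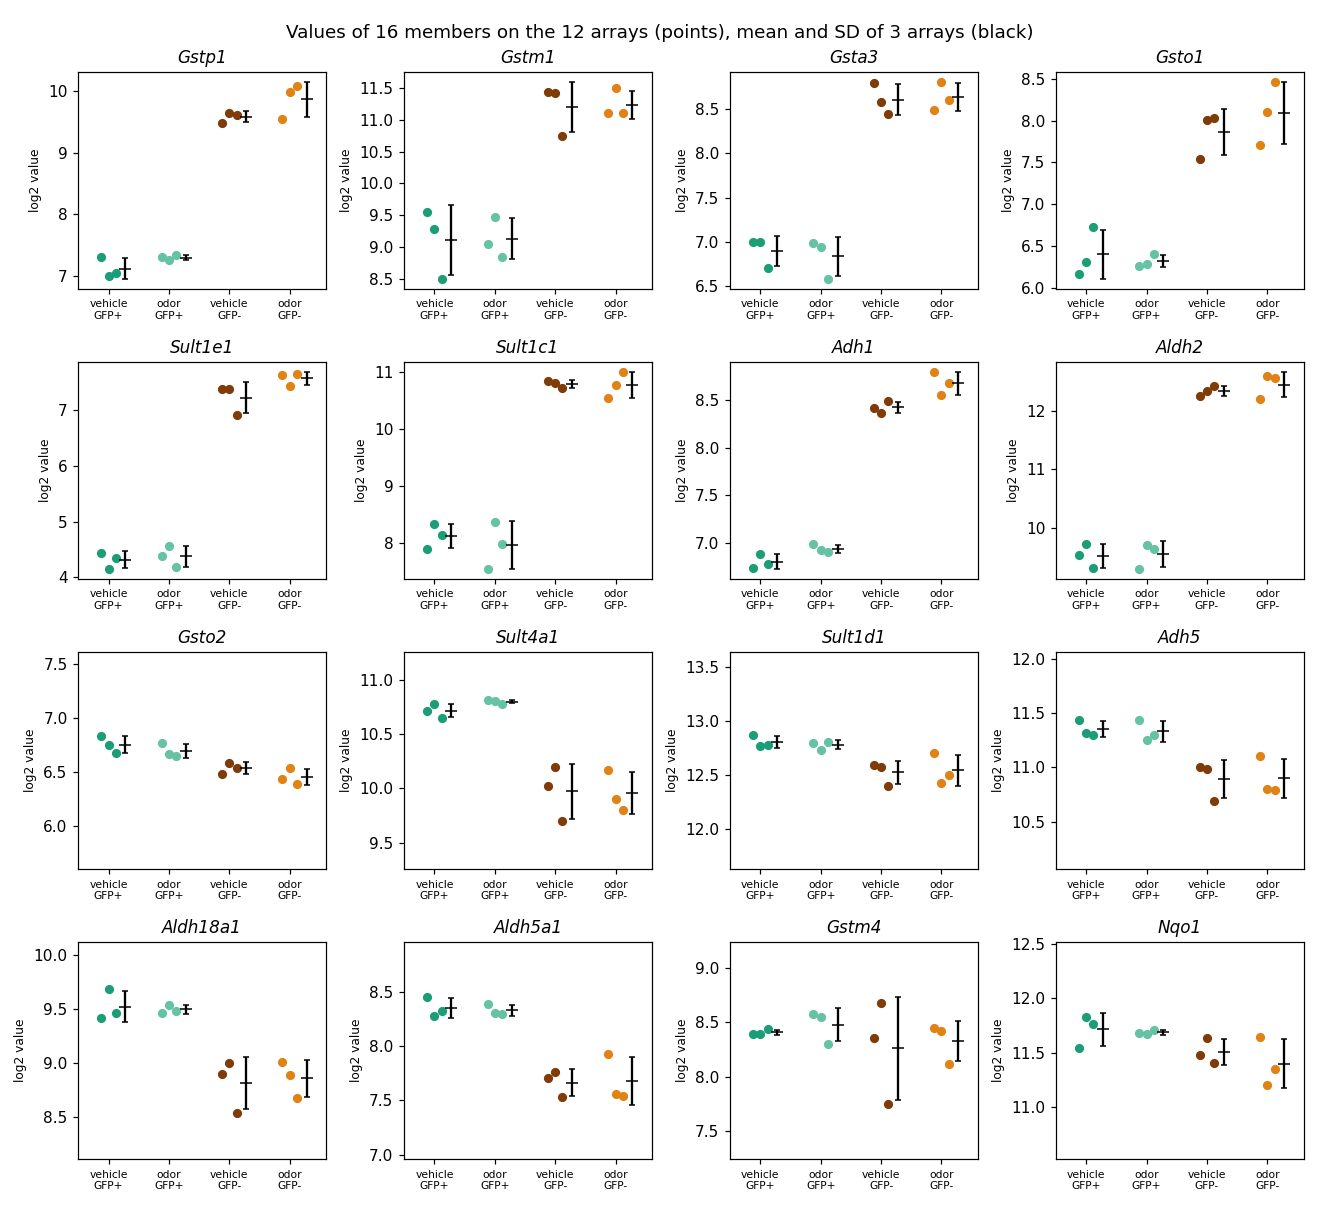
Each panel shows 1 gene, with its log2 value on the y axis and the 4 groups on the x axis. Points are arrays and black marks the mean and SD of 3 arrays. The first 8 genes are lower in GFP-positive cells (green) than in GFP-negative cells (brown and orange), the next 6 are higher, and Gstm4 and Nqo1 overlap between fractions in vehicle mice.

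Of the 7 alcohol dehydrogenases 1 was lower and 1 higher in both treatments. Each is 14.3% of the family, against 16.5% lower and 25.6% higher over all genes. Adh1, which oxidises ethanol and retinol, read 6.74, 6.89 and 6.78 in GFP-positive and 8.42, 8.37 and 8.49 in GFP-negative cells of vehicle mice. In odor mice Adh1 read 6.98, 6.92 and 6.90 against 8.80, 8.56 and 8.69. The groups were far apart and tight, with a 3.08-fold difference in vehicle (log2 -1.62, SE 0.08, adjusted p = 1.16e-08) and a 3.35-fold difference in odor mice. Adh5, the glutathione-dependent formaldehyde dehydrogenase found in most cells, read 11.44, 11.31 and 11.30 against 11.003, 10.98 and 10.69 in vehicle and 11.44, 11.25 and 11.30 against 11.11, 10.80 and 10.80 in odor mice, again without overlap. It was 1.38-fold higher in GFP-positive cells there (adjusted p = 0.00338) and 1.35-fold higher in odor mice (adjusted p = 0.00483). Adh7, another retinol dehydrogenase, differed by -0.26 (adjusted p = 0.0562) and -0.12 (adjusted p = 0.337). Adh4, Adh6a and Adh6-ps1 lay below the lower quartile on all 12 arrays.

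Of the 21 aldehyde dehydrogenases 9 were lower and 3 higher in both treatments, 42.9% and 14.3%, against 16.5% and 25.6% of all genes. Aldh2, the mitochondrial enzyme that clears acetaldehyde, read 9.53, 9.72 and 9.30 in GFP-positive and 12.25, 12.35 and 12.42 in GFP-negative cells of vehicle mice. The odor mice gave 9.29, 9.71 and 9.63 for Aldh2 against 12.20, 12.59 and 12.56. The gap between the fractions was many times the spread within each, 7.08-fold in vehicle (log2 -2.82, SE 0.14, adjusted p = 1.44e-08) and 7.5-fold in odor mice. Aldh9a1, which oxidises aminobutyraldehydes, read 7.13, 6.95 and 7.14 in GFP-positive and 8.56, 8.96 and 8.59 in GFP-negative cells of vehicle mice, and 7.09, 6.84 and 6.92 against 8.67, 9.07 and 9.02 in odor mice. Aldh9a1 was lower without overlap, 3.09-fold and 3.92-fold. Aldh1a1, which makes retinoic acid from retinal, read 6.74, 6.98 and 6.85 against 7.94, 7.82 and 7.73 in vehicle and 6.36, 6.69 and 6.91 against 7.65, 7.82 and 7.42 in odor mice. Its close copy Aldh1a7 read 6.35, 6.70 and 6.08 against 7.43, 7.64 and 7.05 in vehicle and 6.09, 6.45 and 5.88 against 7.33, 7.66 and 7.24 in odor mice. Neither gene overlapped between fractions, with differences of -0.97 and -0.98 for Aldh1a1 and of -1.0 and -1.27 for Aldh1a7. The other lower members were Aldh6a1 of valine breakdown (-0.55 and -0.56), the folate enzyme Aldh1l1 (-0.40 and -0.35), and Aldh3b1, Aldh3b3 and Aldh3a2, which oxidise fatty aldehydes. Differences of these last 3 were between -0.21 and -0.35. Their vehicle calls were lost under centring, and with 1 array left out they held in 1 of 6 fits for Aldh3a2 and in 2 of 6 each for Aldh3b1 and Aldh3b3 (adjusted p up to 0.138). Only the fit without GFP-negative replicate 4 kept the call of Aldh3a2. That of Aldh3b1 held without GFP-positive replicate 1 or GFP-negative replicate 4, and that of Aldh3b3 without GFP-positive replicate 2 or GFP-negative replicate 1. The odor calls of Aldh3a2 and Aldh3b3 were lost under centring too, and that of Aldh3a2 without odor GFP-positive replicate 4 (adjusted p = 0.0542). Aldh3b3 also lost its vehicle call with the pool block (adjusted p = 0.0593) and with the mean of its probe sets. Of its other probe sets 1 gave -0.26 (adjusted p = 0.166) and -0.57 (adjusted p = 0.0053), and 1 gave -0.18 (adjusted p = 0.215) and 0.22 (adjusted p = 0.117), so its value is uncertain. The retinal dehydrogenases Aldh1a2 and Aldh1a3 passed in neither treatment (-0.07 and -0.06 in vehicle mice).

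The 3 higher aldehyde dehydrogenases are mitochondrial enzymes of amino acid metabolism. Aldh18a1, which starts proline synthesis from glutamate, read 9.42, 9.69 and 9.46 in GFP-positive and 8.90, 9.0 and 8.54 in GFP-negative cells of vehicle mice. In odor mice Aldh18a1 read 9.46, 9.54 and 9.48 against 9.01, 8.89 and 8.68. Its fractions did not overlap in either treatment, and it was 1.63-fold higher in vehicle (adjusted p = 0.000452) and 1.55-fold higher in odor mice (adjusted p = 0.000906). Aldh5a1, which completes the breakdown of the transmitter GABA, read 8.46, 8.28 and 8.32 against 7.70, 7.76 and 7.53 in vehicle and 8.39, 8.31 and 8.29 against 7.93, 7.56 and 7.54 in odor mice. It was higher without overlap by 0.69 (SE 0.11) and by 0.65 in odor mice. Aldh7a1 of lysine breakdown read 8.04, 8.30 and 8.06 against 7.74, 7.66 and 7.59 in vehicle and 8.02, 8.01 and 8.03 against 7.85, 7.76 and 7.52 in odor mice. It was higher by 0.47 and 0.31, and its odor call was lost under loess (adjusted p = 0.128) and without odor GFP-negative replicate 4 (adjusted p = 0.0725). Aldh4a1 of proline breakdown passed in neither treatment (0.15 and 0.16). Aldh8a1 was called higher in odor mice alone (0.31, adjusted p = 0.00917).

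Nqo1 reduces quinones and is known in the olfactory epithelium as a marker of neurons of the dorsal zone. It read 11.55, 11.83 and 11.76 in GFP-positive and 11.47, 11.63 and 11.41 in GFP-negative cells of vehicle mice. In odor mice it read 11.68, 11.67 and 11.71 against 11.64, 11.20 and 11.35. The fractions overlapped in vehicle mice and did not in odor mice. Its difference was 0.21 (SE 0.11, adjusted p = 0.153) in vehicle and 0.29 (adjusted p = 0.0477) in odor mice, and the difference between treatments was 0.08 (SE 0.16). The odor call of Nqo1 was lost without any 1 of the arrays except odor GFP-negative replicate 2, with adjusted p up to 0.169. It was also lost under loess (0.148), with only the compared groups in the fit (0.0738) and with the code number as a block (0.0652). With the pool as a replicate block no call of Nqo1 changed. A vehicle call appeared under quantile normalization (adjusted p = 0.0449), under centring (0.0147) and with array weights (0.0405).

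Genes that lie next to each other in the genome did not always move together. In the RefSeq gene order of GRCm38.p6, 46 of the 70 members found there fall into 12 runs with at most 2 other coding genes between neighbours. The run of 7 Gstm genes held 5 that were lower in both treatments (16.5% of all genes), and the adjacent Aldh1a1 and Aldh1a7 were both lower. Sult1d1 and Sult1e1 end a run of 11 genes that starts with the Ugt2 group, and were called in opposite directions. Gsto1 and Gsto2 are adjacent and were called in opposite directions as well. The run of 6 Adh genes held Adh1, lower, and Adh5, higher.

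Many cell type markers differed between the fractions as well. The 24 lower members averaged 7.32 to 7.46 (log2) per GFP-positive array and 8.60 to 8.86 per GFP-negative array, and the 7 higher members 9.61 to 9.70 against 9.0 to 9.32. Both sets were picked by this difference on the same arrays, so that their separation was given in advance. All 11 measured sustentacular markers were lower in both treatments, with array means of 7.58 to 7.97 in GFP-positive and 9.36 to 9.64 in GFP-negative cells. Cyp2g1, a cytochrome P450 of sustentacular cells and Bowman's glands, read 10.55 to 11.42 in the GFP-positive arrays, so that its transcript was present there too. All 8 microvillous cell markers and all 27 leukocyte markers (myeloid, neutrophil and lymphoid) were lower as well. Leukocyte array means were 7.38 to 7.71 in GFP-positive and 10.35 to 10.91 in GFP-negative cells. Of the Bowman's gland markers 6 of 10 were lower in both treatments, of the horizontal basal cell markers 3 of 6, and of the endothelial and stromal markers 3 of 10. Lower too were 3 of 4 progenitor, 3 of 4 ensheathing glia and 2 of 2 erythroid markers. Immature neuron markers went both ways, with 5 of 9 lower and 4 higher. Over all genes 16.5% were lower and 25.6% higher in both treatments. Mature neuron markers were higher in 10 of 12 cases, at 12.31 to 12.35 against 11.68 to 12.01, and respiratory ciliated cell markers in 6 of 6. Mature neuron markers were lowest among GFP-negative arrays in vehicle replicate 4 and odor replicates 3 and 4. The same arrays had the lowest means of the 7 higher members, 9.0, 9.13 and 9.03. The 24 lower members averaged 8.71, 8.78 and 8.60 in vehicle and 8.68, 8.86 and 8.78 in odor GFP-negative arrays. Sustentacular markers followed that order, with 9.51, 9.61 and 9.39 in vehicle and 9.36, 9.64 and 9.61 in odor mice. Leukocyte markers did not, with 10.35, 10.45 and 10.55 in vehicle and 10.39, 10.76 and 10.91 in odor mice. Among the vehicle GFP-negative arrays replicate 4 was highest in leukocyte markers and lowest in the 24 members. A mean of 24 members need not hold for each, and Gsto1 rose in the order of the leukocyte markers. Which members go with which markers was not tested. The part of cell composition in the enzyme differences was not tested. In sorted bulk samples, fewer cells of a type and less RNA per cell cannot be told apart.

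**Figure D4:**
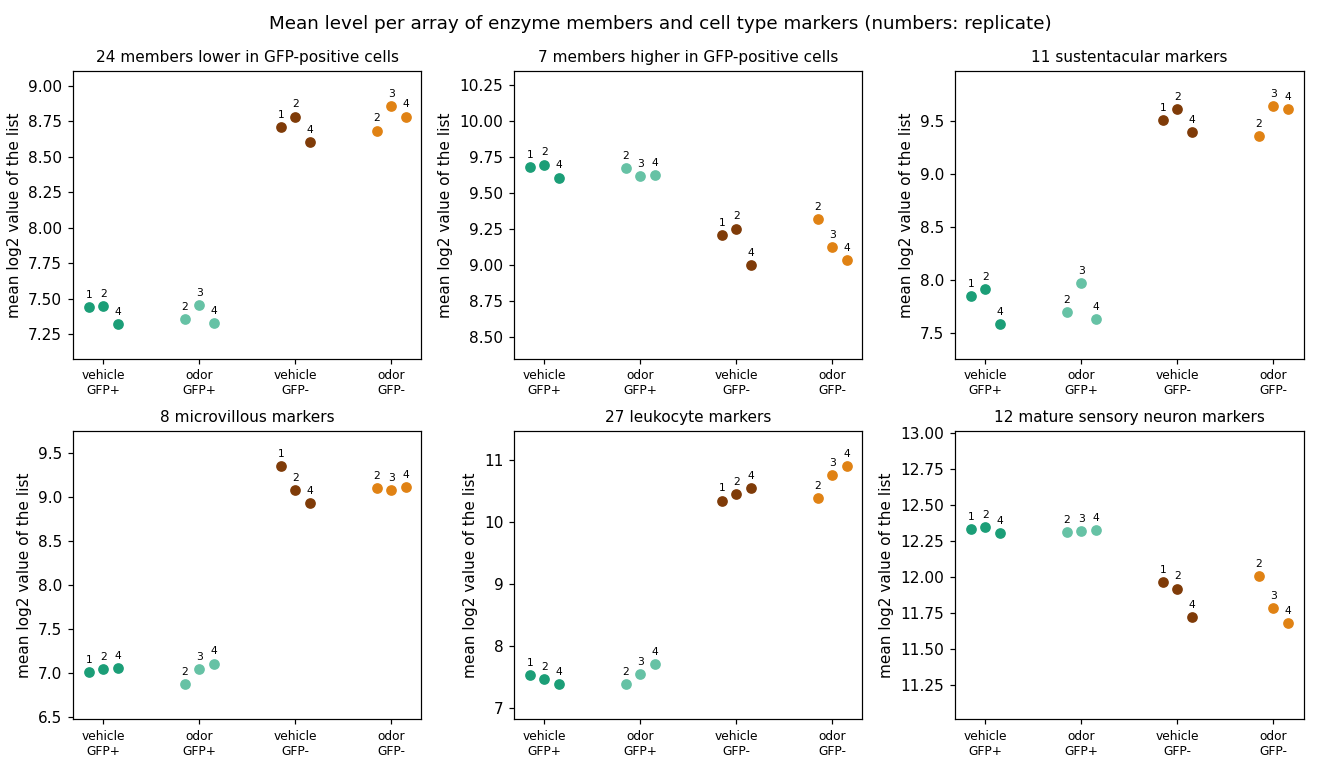
Each panel shows the mean log2 value of 1 list of genes (y axis) on each of the 12 arrays, by group (x axis), with the replicate number beside each point. The 24 lower members lie between 7.32 and 7.46 in GFP-positive and between 8.60 and 8.86 in GFP-negative arrays, sustentacular, microvillous and leukocyte markers lie in the same order, and the 7 higher members and the mature neuron markers in the opposite order. The 24 and the 7 members were picked by this difference on the same arrays.

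Genes that supply or follow the conjugating enzymes were examined as 6 lists. Of 18 glutathione supply and use genes, 8 were lower and 2 higher in both treatments. Gpx1, which reduces peroxides with glutathione, differed by -2.83 and -3.07, the peptidase Anpep by -2.46 and -2.44, the secreted peroxidase Gpx3 by -1.22 and -1.76, and the glutathione reductase Gsr by -1.26 and -1.45. Gss, the last enzyme of glutathione synthesis, was higher by 0.49 and 0.45 and Chac2, which degrades glutathione, by 0.71 and 0.47. Of 10 genes for UDP-glucuronate and PAPS supply 3 were lower and 2 higher. Ugdh, which makes UDP-glucuronate, differed by -0.42 and -0.37, while the PAPS synthase Papss1 was higher by 0.44 and 0.41. The glucuronidase Gusb, which removes the sugar again, differed by -1.94 and -1.99, the nucleotide sugar transporter gene Slc35d2 by -1.24 and -1.77, and Bpnt1, which degrades the spent sulfate donor, by 0.42 and 0.60. These lists therefore held members in both directions, with all-gene shares of 16.5% lower and 25.6% higher.

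Of 15 genes of the NRF2 pathway 7 were lower and 3 higher in both treatments. For this list and those below, the shares over all genes were again 16.5% lower and 25.6% higher, and no list was tested as a set. Higher were the gene of NRF2 itself, Nfe2l2 (0.32 and 0.36), Srxn1 (0.76 and 0.81) and Txnrd1 (0.38 and 0.28). In the same list the ferritin gene Ftl1 differed by -1.89 and -2.07 and Taldo1 of the pentose phosphate pathway by -0.64 and -0.72. Among 32 partners of oxidation, reduction and hydrolysis 17 were lower and 3 higher. Xanthine dehydrogenase Xdh differed by -2.89 and -3.22, the retinol dehydrogenase Dhrs9 by -2.94 and -2.99, and the carboxylesterase Ces1d by -1.84 and -1.99. The carbonyl reductases went in opposite directions, with Cbr2 at -1.80 and -1.73 and Cbr1 at 0.61 and 0.54. Of 11 export transporters 4 were lower and 2 higher, among them Abcc3 at -1.32 and -1.49, Abcb1b at -0.74 and -1.04, Abcg2 at -0.78 and -0.79, and the glutathione conjugate pump Abcc1 at 0.58 and 0.58. The retinoid list of 20 genes held 7 higher and 4 lower, with medians of 0.04 in vehicle and 0.14 in odor mice. The medians of all genes were 0.06 and 0.13. Most genes named next are among the lower ones. Rdh12, which interconverts retinal and retinol, differed by -2.90 and -3.13, the retinoic acid binding protein gene Crabp1 by -1.27 and -1.05, and the retinoic acid receptor genes Rara by -1.24 and -1.35 and Rarb by 0.89 and 0.83.

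Odor exposure was compared with vehicle in each fraction to ask whether the accord goes with another level of these transcripts. No member was called in either fraction by limma. In GFP-positive cells 0.00502% of all genes were called higher and 0% lower, and in GFP-negative cells 0% in either direction. At an unadjusted p under 0.05 there were 2 of 71 members in GFP-positive cells (1.30% of all genes) and 4 in GFP-negative cells (6.53% of all genes). Groups did not overlap for 9 members in GFP-positive cells, 6 higher and 3 lower in odor mice (4.49% and 3.45% of all genes, together 7.93%), and for 7 in GFP-negative cells, 3 higher and 4 lower (2.79% and 4.65%, together 7.44%). The 95% interval of the difference lay within 2-fold for all 71 members in both fractions. Its farthest bounds were -0.66 (Aldh1a7) and 0.59 (Gstm1) in GFP-positive cells and -0.54 (Gstm1) and 0.65 (Gsto1) in GFP-negative cells.

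**Figure D5:**
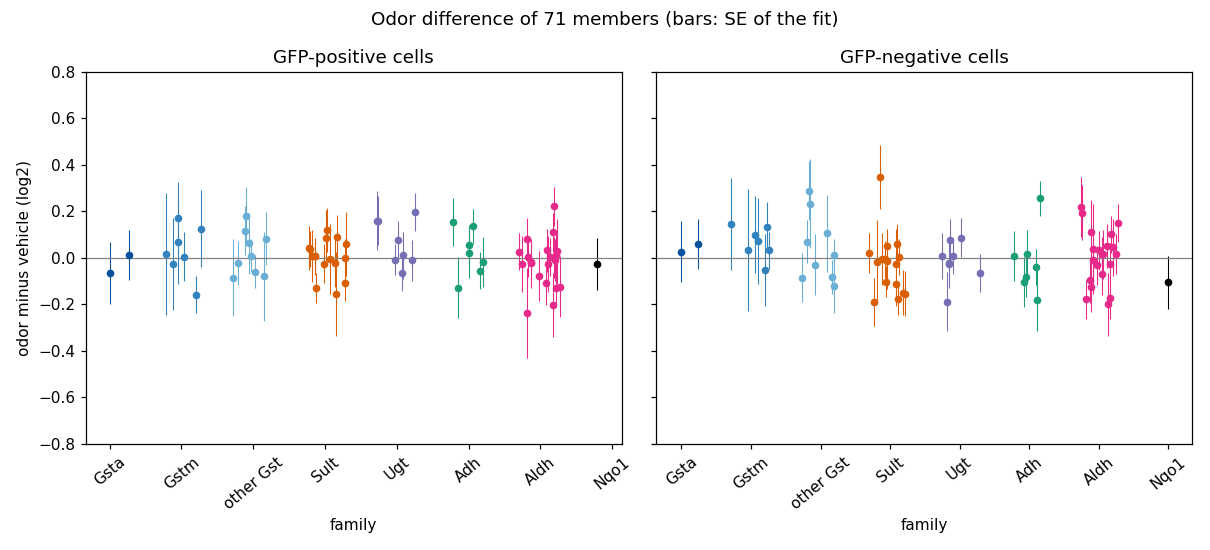
Points are the 71 members, by family on the x axis and with the odor minus vehicle difference (log2) on the y axis, bars are the SE of the fit, and the panels show GFP-positive (left) and GFP-negative cells (right). All points lie between -0.24 and 0.35, and no member was called.

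The 5 members with the smallest p in each fraction show the scale of these differences. In GFP-positive cells Aldh8a1 read 5.58, 5.86 and 5.68 in odor mice against 5.49, 5.51 and 5.45 in vehicle mice. All 3 odor arrays were higher, by 0.22 (SE 0.085, adjusted p = 1.00), and 11 of the 12 Aldh8a1 values lay below the lower quartile of their array. Ugt2b1, always below that quartile, read 4.45, 4.24 and 4.22 against 4.14, 4.11 and 4.06 and differed by 0.20 (SE 0.083). Sult1c2, likewise low, read 4.85, 4.88 and 4.95 against 4.98, 5.10 and 5.00 and differed by -0.13 (SE 0.066). Gstm5 (given above) was lower in all 3 odor arrays, by -0.16 (SE 0.080), and Adh1 higher in all 3, by 0.13 (SE 0.077). The first 2 of these 5 had an unadjusted p under 0.05 in limma, and the adjusted p of all 71 members was 1.00.

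Among GFP-negative cells Adh1 read 8.80, 8.56 and 8.69 in odor mice against 8.42, 8.37 and 8.49 in vehicle mice. The odor arrays of Adh1 were all higher, by 0.26 (SE 0.077), with an adjusted p of 0.732. Sult1e1 differed there by 0.35 (SE 0.14) and Gstp1 by 0.29 (SE 0.13), where the odor arrays of Sult1e1 were all above the vehicle arrays and those of Gstp1 overlapped them. Sult1b1 read 3.84, 3.89 and 3.70 in odor against 4.04, 3.96 and 3.97 in vehicle mice, all lower, by -0.18 (SE 0.071). Aldh1l1 read 6.62, 6.83 and 6.60 against 6.89, 6.79 and 6.90, which overlap, and differed by -0.18 (SE 0.084). The adjusted p of these 4 was 0.732 as well, and all but Aldh1l1 had an unadjusted p under 0.05 in limma. Array means of the leukocyte markers were 10.35 to 10.55 in vehicle and 10.39 to 10.91 in odor GFP-negative cells, and their part was not tested. Nqo1 differed by -0.027 (SE 0.11) in GFP-positive and by -0.11 (SE 0.11) in GFP-negative cells.

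Whether the sort difference itself changed with odor was tested as the interaction. No member was called by limma and 0 of 71 had an unadjusted p under 0.05, against 4.23% of all genes, of which 0.00502% were called higher and 0% lower. Ugt2b34 had the smallest p, with a difference of 0.35 (SE 0.18, adjusted p = 0.971). It read 4.88, 4.58 and 4.23 in GFP-positive and 4.52, 4.63 and 4.61 in GFP-negative cells of vehicle mice, which overlap, and 4.70, 4.77 and 4.69 against 4.31, 4.47 and 4.41 in odor mice, which do not. Aldh9a1 came next with -0.34 (SE 0.18), then Sult1b1 with 0.18. Sult6b2 read 4.55, 4.27 and 4.43 against 4.20, 4.48 and 4.46 in vehicle and 4.55, 4.47 and 4.49 against 4.13, 4.34 and 4.21 in odor mice, an interaction of 0.24. Sult2a8 read 3.49, 3.72 and 3.82 against 3.72, 3.76 and 3.89 in vehicle and 3.67, 3.91 and 3.80 against 3.61, 3.72 and 3.72 in odor mice, an interaction of 0.23. These last genes lay below the lower quartile of every array, apart from Aldh9a1. Aldh9a1 was thus lower in GFP-positive cells by 1.63 in vehicle and by 1.97 in odor mice, a change that was not called. The 95% intervals of all 71 interactions lay within 2-fold in either direction. The members called in 1 treatment alone, 4 in vehicle and 5 in odor mice, are therefore not shown to differ between treatments.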

How the data were processed

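The log2 values per probe set were used as deposited. Per the submitters' processing notes the authors made them with Affymetrix Expression Console from Mouse Gene 1.0 ST arrays, while the sources used here do not give its version, summarization, background method or scaling. Of 35556 probe sets 21789 carried 1 gene symbol in the platform annotation, and the one with the highest mean per gene left 19938 genes. No filter on low values was applied, the table held 0 columns of other samples, and array medians lay between 7.04 and 7.20. These medians, and the lower quartile of an array named throughout, were taken over all 35556 probe sets.

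The 4 groups were fitted in 1 linear model without a replicate block in limma 3.58.1 under R 4.3.3, all tests two-sided, and p-values were adjusted over all genes by Benjamini-Hochberg (threshold 0.05). Differences are log2 with the SE of the fit. P-values measure the spread between pools of mice, and precision is limited by how many arrays there are. The fractions of 1 pool come from the same 3 mice by the labels' shared titles, and their deviations from the group means correlated with r of 0.0732 to 0.252. The fit was tested on simulated data with known log2 changes. A change of 0.25 between odor and vehicle was called for 1 of 50 genes in each fraction. A change of 0.5 was called for 27 of 50 in GFP-positive and 26 of 50 in GFP-negative cells, and a change of 1 for 45 of 50 in each. For the interaction the calls were 0, 6 and 42 of 50. Small odor differences would thus mostly be missed. Alternatives were other scalings, spread estimates, weights, replicate blocks, probe set means, a filter and leaving out each array.

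The members and lists were chosen with earlier results of these data known. Values per array are given by rule for up to 4 members of a family with the largest and up to 4 with the lowest mean sort difference among those called in both treatments, and for the 5 members with the smallest p in each odor comparison and the interaction, with Nqo1 always. The 3 called genes of each partner list that differed most fall under the rule. Values of other members and partners were chosen after they were seen. Python 3.11.15 (matplotlib 3.10.9, pandas 2.3.3, numpy 2.4.6) drew the figures.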

Additional observations from a re-analysis of the deposited data

How the results depend on the processing

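Counts of lower members moved little: leaving out 1 array gave 23 to 25 in vehicle and 23 to 25 in odor mice. Counts of higher members moved, as did the shares over all genes given with some of them above. In vehicle mice they were 17 after centring arrays on the median gene and 6 to 9 without 1 array. In odor mice they were 6 under cyclic loess, 30 after centring and 5 to 13 without 1 array. With the pool of mice as a replicate block the counts were 7 higher and 27 lower in vehicle and 12 and 26 in odor mice, and no call changed beyond those given beside the genes above. The number of the title as a block gave 8 and 29, and 12 and 25, and the number in the sample code 8 and 29, and 10 and 25. Odor comparisons and the interaction had no called member under any alternative. The near-zero differences of Nqo1 changed sign without 1 array: in GFP-positive cells the odor difference ran from -0.11 to 0.032, with 0.032 without vehicle GFP-positive replicate 2. Its interaction ran from -0.020 to 0.20, with -0.0051 without vehicle GFP-positive replicate 1 and -0.020 without odor GFP-negative replicate 3. The cause was not tested. These single-gene values were followed only for the genes and comparisons given by rule. Of the others among them, 1132 kept their direction and call, 25 lost a call and 3 gained one. Calls of further members moved too. Over the 71 members, centring kept 30 of 35 vehicle calls and 34 of 36 odor calls, and it added others. Without odor GFP-negative replicate 4, 29 of 36 odor calls were kept. Dropping genes of low mean left 41 members. Values below the lower quartile, as for 20 members on all arrays, limit what a difference there can show.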

Other observations

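Members of these families whose probe sets carry several symbols belong to no single gene and were tested apart, over 23410 probe sets. The probe set shared by Ugt2a1 and Ugt2a2, the glucuronosyltransferases known from the olfactory epithelium, averaged 11.26 ± 0.21 and 11.09 ± 0.16 in GFP-positive cells of vehicle and odor mice and 11.84 ± 0.15 and 11.78 ± 0.13 in GFP-negative cells (log2, SD, n = 3 arrays). It was lower in GFP-positive cells by a difference of -0.58 in vehicle and -0.69 in odor mice (adjusted p of 0.0017 and 0.00055, limma). The probe set shared by 8 Ugt1a genes, which conjugate bilirubin and phenols, differed by -0.82 and -0.97.

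Both probe sets shared by Gstp1 and its near copy Gstp2 were lower, by -1.39 and -1.40 with vehicle and by -1.69 and -1.72 with odor. The set shared by Aldh3b2 and Aldh3b3 differed by -0.76 and -0.88, more than Aldh3b3 alone. The 4 sets of the Gsta1 and Gsta2 group differed by -0.16 to -0.36 in vehicle and -0.25 to -0.62 in odor mice, all but 1 value past an adjusted p of 0.05 in limma. Those of the Sult2a group differed by 0.00 and 0.03 in vehicle mice. None was called between odor and vehicle mice by limma.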
